A study of Mus musculus with 16 samples.

Results

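A set of 9 complement genes was followed by name through a count table of mouse kidney: the C1q chains C1qa, C1qb and C1qc, the central components C3, C4b and Cfb, the receptor C3ar1, and the inhibitors Cfi and Serping1. They are 9 of the 52338 genes in the table, and all 9 passed the filter on low counts that left 17731 genes for testing. The table covers 16 kidney libraries of C57BL6 mice, all on a high-fat diet, with 4 libraries in each of 4 groups. The groups are FAN ad libitum, FAN time-restricted, vehicle ad libitum and vehicle time-restricted, and kidneys were taken on day 15. The labels do not spell out FAN, although the count table's column names carry the word folic. They give no age, sex or animal number, and no dose. Values are CPM, the reads of a gene relative to all reads of its library, after TMM scaling, and libraries are named by group and by the number in their column. Group names are shortened below to FAN-AL and FAN-TR, vehicle-AL and vehicle-TR, with AL for ad libitum and TR for time-restricted feeding.

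Complement is a cascade of plasma and tissue proteins that marks surfaces for removal. The classical pathway starts when C1q, a bundle of C1qa, C1qb and C1qc chains made mainly by macrophages and dendritic cells, binds immune complexes or dying cells. The proteases C1r and C1s then cleave C4 and C2, and the lectin pathway reaches the same step through mannose-binding lectins. Factor B (Cfb) and factor D form the alternative pathway, which amplifies the cleavage of C3, the protein at which all routes meet. The fragment C3a signals through its receptor C3ar1 on myeloid cells. Factor I (Cfi) cuts C3b and C4b into inactive forms with the help of cofactors. C1 inhibitor (Serping1) blocks C1r, C1s and the lectin proteases. In the kidney, tubule cells are a known local source of C3.

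Gene positions are those of GENCODE M21 on GRCm38. The C1q chains lie side by side on the minus strand of chromosome 4, with C1qb (ENSMUSG00000036905) at chr4:136880129-136886187, C1qc (ENSMUSG00000036896) at chr4:136889804-136893065 and C1qa (ENSMUSG00000036887) at chr4:136895917-136898803. C4b (ENSMUSG00000073418, chr17:34728380-34743882) and Cfb (ENSMUSG00000090231, chr17:34856374-34862518) lie on the minus strand of chromosome 17, in the major histocompatibility region. C3 (ENSMUSG00000024164) is on the same chromosome and strand at chr17:57203970-57228136. C3ar1 (ENSMUSG00000040552) is at chr6:122847138-122856161, minus strand, and Serping1 (ENSMUSG00000023224) at chr2:84765387-84775444, minus strand. Cfi (ENSMUSG00000058952) is at chr3:129835884-129875332, plus strand. The annotation classes all 9 as protein-coding.

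C4b has a near-identical neighbour, C4a (ENSMUSG00000015451, chr17:34809092-34823464, minus strand), which the annotation classes as a processed transcript. The transcripts C4b-201 and C4a-207 were identical at 96.2% of 5366 aligned bases, with a longest identical run of 433 bases. Stretches of 60 bases without gaps and away from the transcript ends were searched, and the one with the most differences is shown. Among those searched, it is where reads of the 2 genes are easiest to tell apart. Capitals mark the 13 bases that differ, and the stretches are bases 2761 to 2820 of C4b-201 and 2755 to 2814 of C4a-207.
C4b: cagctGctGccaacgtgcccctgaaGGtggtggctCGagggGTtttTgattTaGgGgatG
C4a: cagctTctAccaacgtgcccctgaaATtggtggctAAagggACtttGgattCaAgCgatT
Reads from the identical runs can be assigned to either gene, so the counts of both are uncertain to that extent.

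Cfb is uncertain for another reason. Of its 2825 exon bases, 2246 (79.5%) also lie in exons of Gm20547, a protein-coding model on the same strand that spans Cfb and C2. Gm20547 had 0 counts in all 16 libraries. How the authors' counting treated reads on shared exons is not given in the sources used here.

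RefSeq promoter windows on GRCm38.p6, minus strand, were held for 4 of the 9 members (C3, C3ar1, C1qb and C1qc). The 250 bases before the start are shown for 3 of the 8 members that were higher in FAN under both regimens. These are C3 (chr17:57228137-57228386), C3ar1 (chr6:122856158-122856407) and C1qb (chr4:136886201-136886450). Capitals mark matches to the motifs searched on both strands.
C3: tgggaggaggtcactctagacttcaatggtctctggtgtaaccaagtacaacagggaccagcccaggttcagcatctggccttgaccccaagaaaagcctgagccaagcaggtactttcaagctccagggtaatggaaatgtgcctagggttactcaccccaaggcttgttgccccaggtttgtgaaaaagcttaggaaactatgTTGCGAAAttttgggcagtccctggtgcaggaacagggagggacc
C3ar1: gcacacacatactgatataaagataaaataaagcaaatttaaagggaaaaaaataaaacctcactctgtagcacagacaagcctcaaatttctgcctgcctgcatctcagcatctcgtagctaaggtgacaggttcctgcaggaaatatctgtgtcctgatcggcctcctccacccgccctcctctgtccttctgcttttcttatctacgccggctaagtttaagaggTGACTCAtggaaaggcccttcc
C1qb: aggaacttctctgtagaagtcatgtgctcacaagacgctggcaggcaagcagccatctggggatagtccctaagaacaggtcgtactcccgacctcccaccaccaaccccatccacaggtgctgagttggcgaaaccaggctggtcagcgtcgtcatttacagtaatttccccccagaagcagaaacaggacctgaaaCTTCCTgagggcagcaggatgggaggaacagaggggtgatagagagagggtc

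The C3 window held the letters of a C/EBP motif (TTGCNNAA) 45 to 38 bases before the start, which 9.56% of 32851 RefSeq promoter windows of the same length also held. The C3ar1 window held an AP-1 motif (TGANTCA) 22 to 16 bases before the start, found in 6.75% of windows. The C1qb window held the ETS core (AGGAAG) on the opposite strand 52 to 47 bases before the start, and 29.5% of windows held it. The C1qc window (chr4:136892915-136893164) is not printed and overlaps its own annotated gene, which reaches chr4:136893065. The C3ar1 window also overlaps its gene, at the edge, as that gene reaches chr6:122856161. C1qc held the ETS core at 2 places and an NF-kappaB motif, the latter found in 7.25% of windows. None of these matches overlapped another. The gamma-activated site of STAT factors (TTCNNNGAA, 7.02% of windows) and the interferon-stimulated response element (2.98%) were in 0 of the 4 windows. A match describes the letters only, and no factor's binding was measured.

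Total counts per library ranged from 12450812 to 33976660, and a count of 0 allowed a level of up to 0.0615 to 0.279 CPM on the TMM scale, counting error only. The S numbers of the column names fall into 3 runs, of which only the earliest holds both FAN and vehicle libraries. It includes FAN-AL 6 and 7, FAN-TR 6 and the first 2 vehicle libraries of each regimen. Mitochondrial transcripts took 6.94 to 14.8% of counts in FAN-AL, 21.4 to 26.7% in FAN-TR and 17.2 to 22.8% in vehicle libraries. Proximal tubule markers summed to 1815 to 3581 CPM in FAN-AL, 6759 to 7792 CPM in FAN-TR and 11345 to 14638 CPM in vehicle libraries, so the libraries carry the markers of the labelled organ. The labels do not say that the samples of a group came from separate animals, so the p-values measure the spread between these samples, which may be technical. In bulk tissue, fewer cells of a type and less RNA per cell cannot be told apart.

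**Figure D1:**
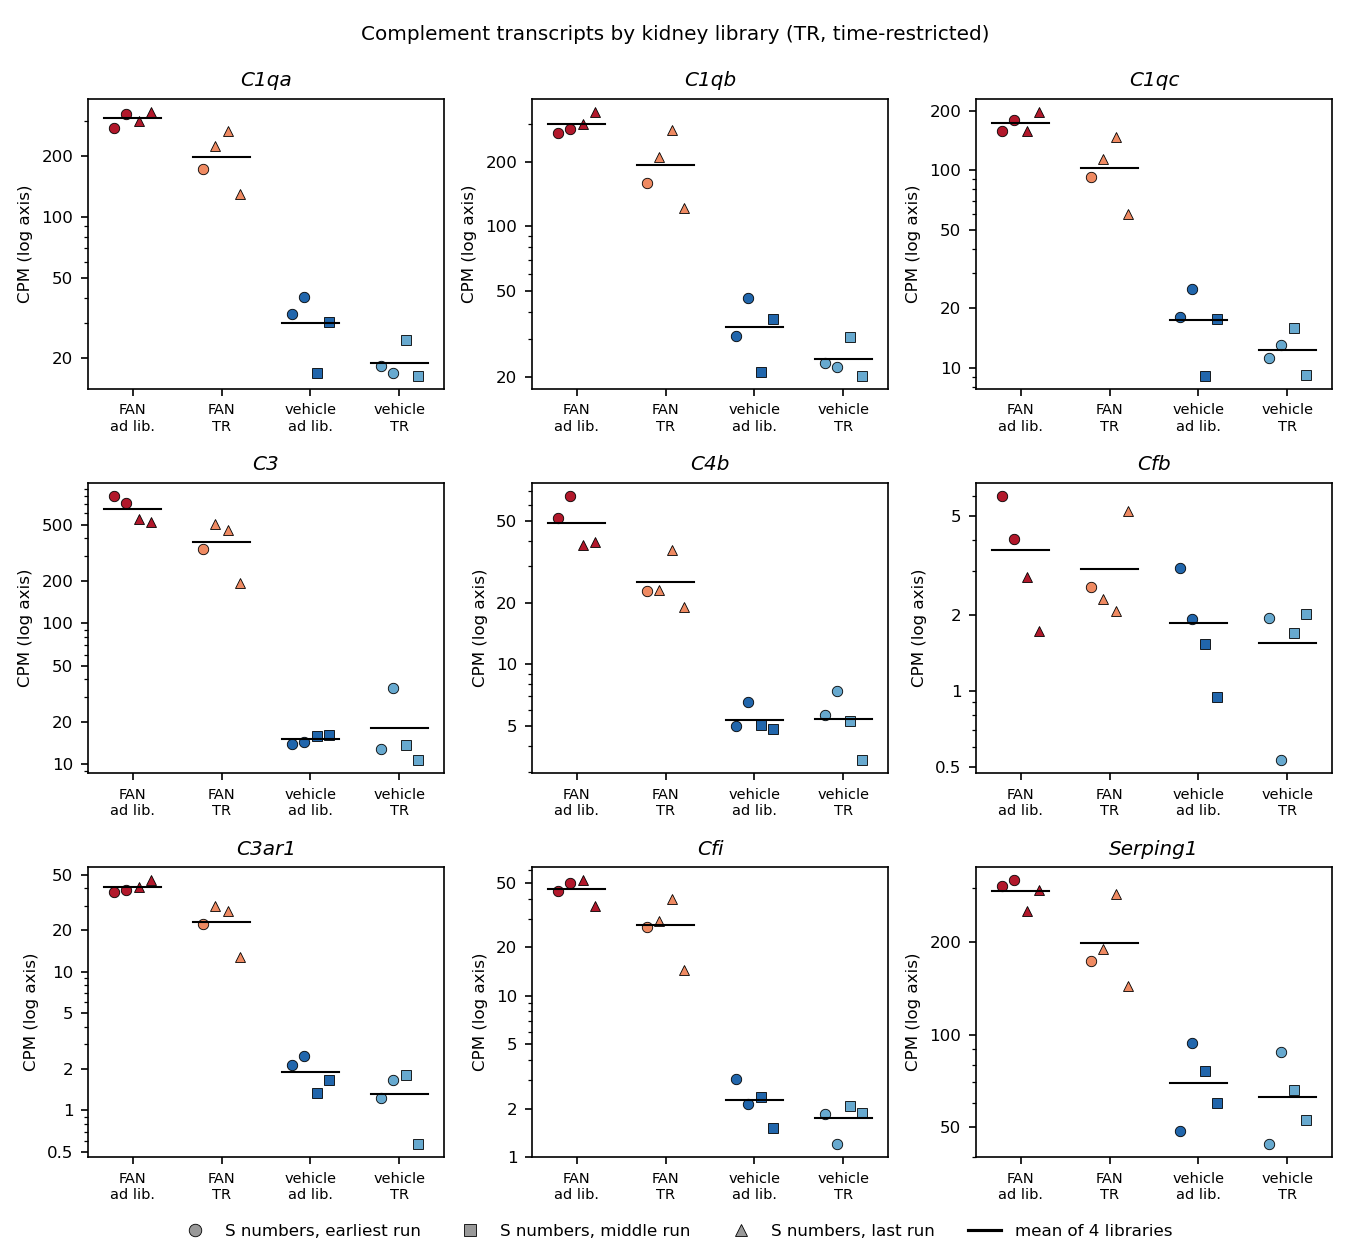
CPM of the 9 complement genes in each of the 16 libraries on a log axis, with 1 panel per gene, 1 column of points per group, marker shape for the run of S numbers and a line for the group mean. In every panel but that of Cfb, the 4 FAN libraries of a regimen lie above the 4 vehicle libraries of that regimen, and Cfb does so under time-restricted feeding alone.

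The first question is how complement transcripts differed between FAN and vehicle kidneys under each regimen. Under ad libitum feeding 8 of the 9 members were higher in FAN and 1, Cfb, did not pass, by edgeR's quasi-likelihood test with Benjamini-Hochberg adjusted p under 0.05. Of all genes tested, 32.1% were higher and 28.6% lower in this comparison. The 9 members' median log2 change was 3.30, against 0.06 for all genes tested. Under time-restricted feeding the same 8 members were higher and Cfb again did not pass, where 24.5% of all genes were higher and 19.0% lower. Their median there was 3.06, against 0.05 for all genes.

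C3, at which the pathways converge, had the largest rise of the members. It stood at 798, 715, 545 and 522 CPM in FAN-AL 6, 7, 10 and 12, and at 13.9, 14.4, 15.8 and 16.1 CPM in vehicle-AL 1 to 4. In FAN-TR 6, 10, 11 and 12 it was 336, 507, 459 and 193 CPM, against 12.7, 34.8, 13.8 and 10.8 CPM in vehicle-TR 1 to 4. No FAN library overlapped a vehicle library, although vehicle-TR 2 was well above the other vehicle libraries. The log2 change was 5.42 ± 0.39 (SE), or 42.9-fold, under ad libitum feeding (adjusted p = 4.67e-09). It was 4.36 ± 0.37, or 20.6-fold, under time-restricted feeding (adjusted p = 1.38e-07). In the libraries of the earliest S numbers these changes were 5.70 ± 0.54 and 3.75 ± 0.53.

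The 3 chains of C1q, the recognition molecule, rose by similar amounts. C1qa was at 277, 323, 299 and 331 CPM in FAN-AL and 173, 224, 266 and 130 CPM in FAN-TR libraries, here and below in the order of the library numbers. In vehicle libraries it was at 33.0, 40.2, 16.9 and 30.2 CPM under ad libitum and 18.5, 16.9, 24.6 and 16.5 CPM under time-restricted feeding. The FAN libraries of either regimen were thus well clear of all vehicle libraries, with FAN-TR 12 the lowest of them. The log2 change of C1qa was 3.35 ± 0.25 (10.2-fold, adjusted p = 4.07e-09) under ad libitum and 3.37 ± 0.25 (10.4-fold, adjusted p = 2.40e-08) under time-restricted feeding.

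C1qb was at 274, 286, 299 and 342 CPM in FAN-AL, 159, 211, 282 and 122 CPM in FAN-TR, 30.8, 46.6, 21.05 and 37.0 CPM in vehicle-AL, and 23.2, 22.2, 30.6 and 20.2 CPM in vehicle-TR libraries. C1qc was lower, at 157, 179, 157 and 197 CPM in FAN-AL, 91.8, 113, 147 and 59.8 CPM in FAN-TR, 18.1, 25.1, 9.11 and 17.6 CPM in vehicle-AL, and 11.2, 12.97, 15.9 and 9.21 CPM in vehicle-TR libraries. Both chains kept the order of libraries seen for C1qa in FAN-TR mice, with library 11 highest and library 12 lowest. C1qb was 8.86-fold higher under ad libitum (log2 3.15 ± 0.25) and 8.03-fold higher under time-restricted feeding (log2 3.01 ± 0.25). C1qc was 9.84-fold (log2 3.30 ± 0.29) and 8.31-fold higher (log2 3.05 ± 0.29). The adjusted p of these 4 changes lay between 1.10e-08 and 3.28e-07. Within the earliest S numbers the log2 changes of the 3 chains were 2.82 to 2.996 under ad libitum and 2.74 to 3.22 under time-restricted feeding.

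C4b, the component that C1s cleaves to build the classical C3 convertase, was at 51.7, 66.1, 38.2 and 39.4 CPM in FAN-AL and 22.8, 23.1, 36.1 and 19.0 CPM in FAN-TR libraries. It was at 5.01, 6.52, 5.08 and 4.86 CPM in vehicle-AL and 5.63, 7.41, 5.26 and 3.42 CPM in vehicle-TR libraries. The highest vehicle library was below the lowest FAN library. The log2 change was 3.18 ± 0.24 (9.07-fold, adjusted p = 4.70e-09) under ad libitum and 2.20 ± 0.24 (4.58-fold, adjusted p = 1.11e-06) under time-restricted feeding. Within the earliest S numbers it was 3.31 ± 0.20 and 1.73 ± 0.22.

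C4a, named here after its values were seen, went the other way. It was at 1.95, 2.01, 0.907 and 1.99 CPM in FAN-AL, 0.584, 1.01, 1.10 and 1.95 CPM in FAN-TR, 3.09, 3.40, 5.27 and 3.15 CPM in vehicle-AL, and 6.27, 4.68, 2.79 and 3.75 CPM in vehicle-TR libraries. All FAN libraries lay below all vehicle libraries. Its log2 change was −1.10 ± 0.33 (adjusted p = 0.00698) and −1.99 ± 0.35 (adjusted p = 0.000210), with −0.40 and an adjusted p of 0.295 under ad libitum feeding when libraries were scaled by total counts. Whether reads of C4b were counted for C4a was not tested.

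**Figure D2:**
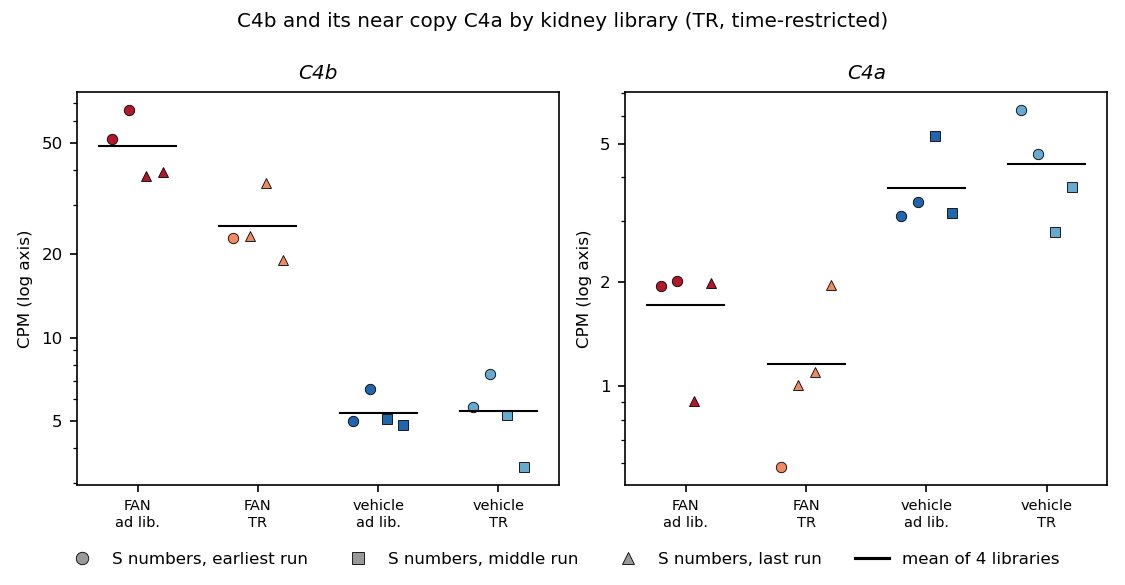
CPM of C4b and C4a in each of the 16 libraries on log axes, grouped by treatment and feeding. C4b lies between 19.0 and 66.1 CPM in FAN and between 3.42 and 7.41 CPM in vehicle libraries, while C4a lies between 0.584 and 2.01 CPM in FAN and between 2.79 and 6.27 CPM in vehicle libraries.

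Cfb, the protease-bearing subunit of the alternative C3 convertase, was the member with the lowest FAN levels. It was at 5.99, 4.04, 2.84 and 1.73 CPM in FAN-AL, 2.61, 2.32, 2.08 and 5.20 CPM in FAN-TR, 3.09, 1.93, 1.53 and 0.946 CPM in vehicle-AL, and 1.95, 0.532, 1.71 and 2.04 CPM in vehicle-TR libraries. Groups overlapped under ad libitum feeding and were separated by a small margin, 2.04 against 2.08 CPM, under time-restricted feeding. The log2 differences were 0.94 ± 0.44 (adjusted p = 0.0711) and 0.96 ± 0.46 (adjusted p = 0.101). Cfb passed under ad libitum feeding with scaling by total counts (log2 1.64, adjusted p = 0.00266), with limma voom (1.33, adjusted p = 0.00386), and without FAN-AL 12 (1.17, adjusted p = 0.0260) or vehicle-AL 1 (1.29, adjusted p = 0.0265).

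C3ar1, the receptor of C3a, was at 37.5, 38.6, 40.7 and 45.7 CPM in FAN-AL and 22.1, 29.7, 27.2 and 12.8 CPM in FAN-TR libraries. In vehicle libraries it was at 2.12, 2.45, 1.34 and 1.64 CPM under ad libitum and 1.23, 1.67, 1.80 and 0.570 CPM under time-restricted feeding, from 7 to 70 reads. The lowest FAN library was several times the highest vehicle library. It was 21.1-fold higher in FAN under ad libitum (log2 4.40 ± 0.28, adjusted p = 5.89e-10) and 16.7-fold higher under time-restricted feeding (log2 4.06 ± 0.28, adjusted p = 1.20e-08). Within the earliest S numbers the log2 changes were 4.02 ± 0.18 and 3.85 ± 0.21.

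Both inhibitors among the members also rose. Cfi, the protease that inactivates C3b and C4b, was at 44.6, 50.1, 52.1 and 36.2 CPM in FAN-AL, 26.6, 29.1, 39.6 and 14.5 CPM in FAN-TR, 3.06, 2.14, 2.35 and 1.51 CPM in vehicle-AL, and 1.86, 1.21, 2.07 and 1.87 CPM in vehicle-TR libraries. Its change was 19.8-fold under ad libitum (log2 4.31 ± 0.28, adjusted p = 7.68e-10) and 15.9-fold under time-restricted feeding (log2 3.99 ± 0.28, adjusted p = 1.43e-08). That rise was close to that of C3ar1 in size and of the same order in both regimens. In the earliest S numbers alone it was 4.14 ± 0.24 and 4.06 ± 0.27 on the log2 scale.

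Serping1, the inhibitor of C1r and C1s, had the highest vehicle levels of the members in CPM and the smallest rise among those that passed. It was at 305.1, 318, 252 and 296 CPM in FAN-AL, 173, 190.3, 287 and 145 CPM in FAN-TR, 48.7, 94.0, 76.2 and 59.9 CPM in vehicle-AL, and 44.1, 88.1, 66.2 and 52.7 CPM in vehicle-TR libraries. No FAN library overlapped a vehicle library, and FAN-TR 11 was as high as the FAN-AL libraries. The change was 4.20-fold (log2 2.07 ± 0.24, adjusted p = 8.65e-07) under ad libitum and 3.16-fold (log2 1.66 ± 0.24, adjusted p = 2.63e-05) under time-restricted feeding. Within the earliest S numbers it was 2.09 ± 0.44 and 1.32 ± 0.50 on the log2 scale, and the latter did not pass (adjusted p = 0.120).

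Counted over libraries, 8 members lay higher in all 4 FAN than in all 4 vehicle libraries under ad libitum feeding, where 29.0% of all genes did so. All 9 members did under time-restricted feeding, where 22.4% of all genes did. Scaling by total counts in place of TMM moved the median of all genes from 0.06 to 0.76 in the ad libitum comparison and from 0.05 to 0.16 in the time-restricted one. All 8 rises passed under that scaling too. It called 10823 of 17731 genes higher under ad libitum and 5055 higher under time-restricted feeding.

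**Figure D3:**
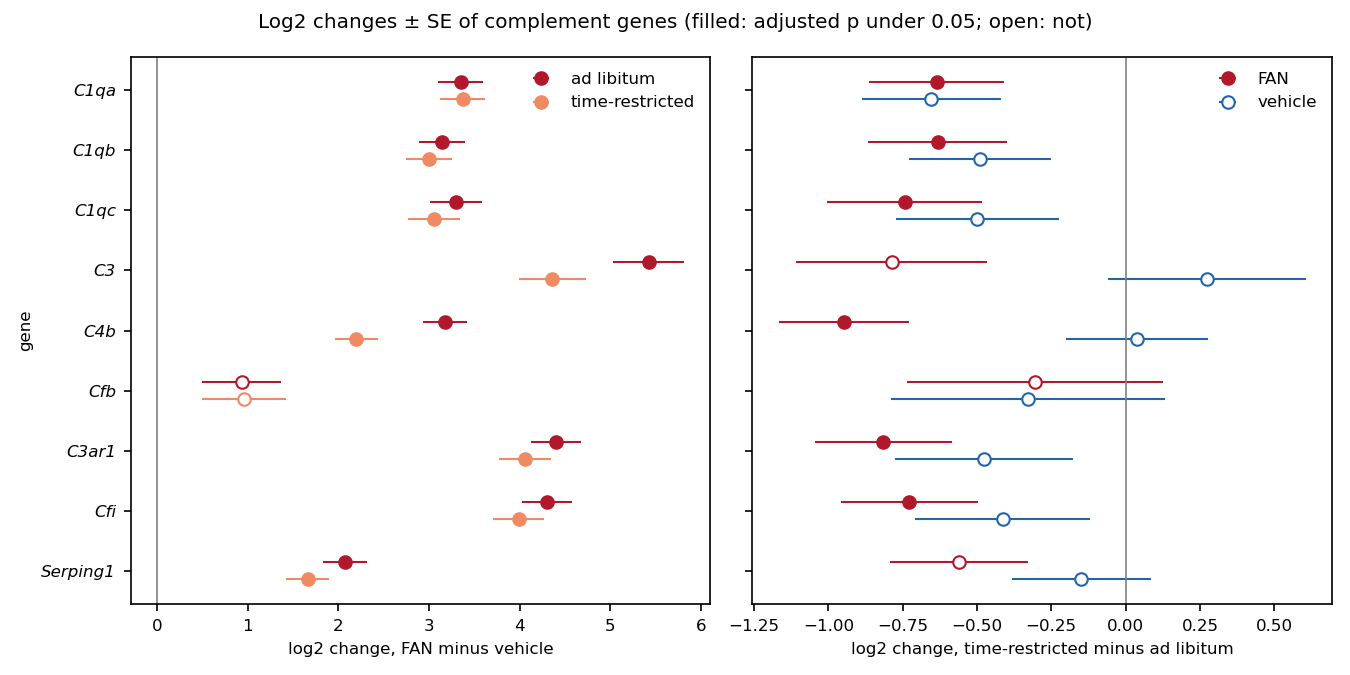
Log2 changes of the 9 members with their standard errors, with FAN minus vehicle under each regimen on the left and time-restricted minus ad libitum feeding within FAN and within vehicle mice on the right. Filled points have an adjusted p under 0.05, which holds for 8 members in both FAN comparisons, for 6 members in the FAN feeding comparison and for 0 in the vehicle feeding comparison.

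The second question is whether the feeding regimen moved complement transcripts in FAN mice. Of the 9 members, 6 were lower under time-restricted than ad libitum feeding (C1qa, C1qb, C1qc, C4b, C3ar1 and Cfi) and 3 did not pass (C3, Cfb and Serping1), by edgeR's quasi-likelihood test. Of all genes tested, 13.9% were lower and 17.9% higher. The members' values for this comparison use the same FAN-AL libraries as the comparison with vehicle. In 5 members, C1qa, C1qc, C3, C4b and C3ar1, all 4 time-restricted libraries lay below all 4 ad libitum libraries, against 12.3% of all genes. FAN-TR 12 was the lowest FAN library in all members but Cfb, where it was the second highest.

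C4b changed most, with a log2 change of −0.95 ± 0.22 (adjusted p = 0.00326), from a mean of 48.9 ± 13.03 CPM (SD, n = 4) under ad libitum to 25.3 ± 7.44 CPM under time-restricted feeding. C3ar1 fell from 40.6 ± 3.63 to 22.9 ± 7.44 CPM, a log2 change of −0.82 ± 0.23 (adjusted p = 0.0116). The C1q chains fell by a like amount, C1qa by 0.64 ± 0.23, C1qb by 0.63 ± 0.23 and C1qc by 0.74 ± 0.26 in log2 units, their adjusted p of 0.0402, 0.0469 and 0.0383 being close to the threshold. Cfi fell by 0.73 ± 0.23 (adjusted p = 0.0225). C3 had means of 645 ± 134 and 374 ± 140.4 CPM and a log2 difference of −0.79 ± 0.32 that did not pass (adjusted p = 0.0709), although its groups did not overlap. Serping1, at 293 ± 28.5 and 198.7 ± 61.7 CPM, had a log2 difference of −0.56 ± 0.23 (adjusted p = 0.0744), and Cfb one of −0.30 ± 0.43 (adjusted p = 0.623).

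These calls rest on few libraries. Leaving out any 1 FAN library left between 2 and 7 members lower, and between 1555 and 2779 of all genes tested. Without FAN-AL 7, FAN-TR 6 or FAN-TR 12 the count was 2, without FAN-AL 6, 10 or 12 it was 3, without FAN-TR 10 it was 4, and without FAN-TR 11 it was 7. C4b and C3ar1 passed in each of these fits. Within the last S numbers alone, with 2 ad libitum and 3 time-restricted libraries, 0 members passed, where 408 of 17446 genes tested were lower. The log2 values there were −0.56 for C4b, −0.87 for C3ar1, −0.60 for C1qa, −0.64 for C1qb, −0.72 for C1qc and −0.64 for Cfi. Within the earliest S numbers, with 2 and 1 FAN libraries, the log2 values were −1.40 for C4b, −0.81 for C3ar1, −0.82 to −0.90 for the C1q chains and −0.86 for Cfi. Scaling by total counts moved the median of all genes in this comparison from −0.02 to −0.67, and called 8 members lower, C3 (−1.42) and Serping1 (−1.20) among them. That scaling called 10512 of 17731 genes lower. DESeq2 also called 8, and limma voom 7, with C3, Cfb and Serping1 gained and C1qa and C1qb lost (adjusted p = 0.0754 and 0.0748). Of all 17731 genes, DESeq2 called 3023 lower and limma voom 4552. With the S number run as a covariate 5 members and 1836 of all 17731 genes were lower, C1qc being lost (adjusted p = 0.0524). With no filter on low counts 3 members and 2109 of 33582 genes were lower, C1qa, C1qb and C1qc being lost (adjusted p = 0.0755, 0.0983 and 0.114).

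In vehicle mice 0 of the 9 members passed between feeding regimens, where edgeR's quasi-likelihood test called 0% of all genes. Without adjustment 1143 genes had a p under 0.05, DESeq2 called 58 genes and limma voom 35. C1qa came closest among the members, with a log2 difference of −0.65 ± 0.23 and a p of 0.0120 by edgeR's quasi-likelihood test before adjustment (adjusted p = 0.612). Its means were 30.1 ± 9.75 CPM under ad libitum and 19.1 ± 3.76 CPM under time-restricted feeding, and the ranges overlapped. The C1qa difference in FAN mice was of like size, −0.64 ± 0.23, with a p of 0.0120 before adjustment in the same test. All 9 members' ranges overlapped between the vehicle groups.

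The test of whether the FAN effect differed between regimens gave 0 of 9 members, where 9.16% of all genes passed, 7.76% with a higher and 1.40% with a lower value of the interaction. For C4b the interaction was −0.99 ± 0.32 (adjusted p = 0.0659) and for C3 −1.06 ± 0.46 (adjusted p = 0.170). For C1qa it was 0.02 ± 0.32 (adjusted p = 0.984). The call of C4b depended on the fit: it passed with DESeq2 (−1.01, adjusted p = 0.0301), limma voom (−1.19, adjusted p = 0.00461), within the earliest S numbers (−1.58, adjusted p = 0.0199) and with scaling by total counts (−1.58, adjusted p = 0.00503). It also passed without FAN-AL 10 (adjusted p = 0.0370), FAN-AL 12 (adjusted p = 0.0486), FAN-TR 11 (adjusted p = 0.0147) or vehicle-TR 4 (adjusted p = 0.0323). Scaling by total counts, which moved the median of all genes in the interaction from 0.02 to −0.57, also called C3 (−1.66, adjusted p = 0.0165) and Serping1 (−0.998, adjusted p = 0.0453). With that scaling 6127 of 17731 genes had a lower value of the interaction.

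Levels of different genes can be set in order only per length, as CPM per kilobase of annotated exon. In FAN-AL kidneys C1qa (296 ± 23.8 CPM per kilobase, SD, n = 4) and C1qb (276 ± 27.3) were highest and overlapped each other. Serping1 (126 ± 12.3), C3 (125 ± 26.0) and C1qc (89.4 ± 10.1) followed, each overlapping the next. Cfi was at 20.6 ± 3.21, C3ar1 at 9.44 ± 0.844, C4b at 8.58 ± 2.29 and Cfb at 1.29 ± 0.646, and of these neighbours only C3ar1 and C4b overlapped. The place of Cfb is uncertain, since 79.5% of its exon bases are shared with Gm20547 and reads there may have been left out. That of C4b is uncertain through reads it shares with C4a. In vehicle-AL kidneys C1qb (31.1 ± 9.85), Serping1 (30.0 ± 8.51) and C1qa (28.9 ± 9.38) led with overlapping ranges, C1qc (9.05 ± 3.39) and C3 (2.93 ± 0.210) each stood apart from their neighbours, and Cfi, C4b, Cfb and C3ar1 lay between 0.439 and 1.02. C3 thus moved from a level between C1qc and Cfi in vehicle-AL kidneys to one that overlapped Serping1 and C1qc in FAN-AL kidneys.

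The shares of the 3 C1q chains in their summed level per length shifted by a few percentage points between groups. C1qa made up 44.8 ± 1.38% in FAN-AL, 45.5 ± 1.49% in FAN-TR, 41.8 ± 2.63% in vehicle-AL and 39.2 ± 1.24% in vehicle-TR libraries (SD, n = 4). The C1qa share lay between 43.3 and 46.6% in FAN and between 37.5 and 45.7% in vehicle libraries, and the 2 time-restricted groups did not overlap. C1qb took up the difference, with 41.7 and 42.0% in the FAN groups and 45.3 and 47.2% in the vehicle groups as means, while C1qc held 12.5 to 13.6%. The exon length of C1qc, 1931 bases, takes in every annotated transcript, so its share may be understated. The chains also varied together from library to library once group means were removed, with a Pearson r across 16 libraries of 0.952 for C1qa and C1qb, 0.968 for C1qa and C1qc and 0.953 for C1qb and C1qc. By the same measure C3 was nearest to C4b (0.703) and Serping1 (0.66), and far from Cfi (0.117), while Cfb ran against C3 (−0.57). All genes of a library share its depth and scaling, so these values are descriptions.

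Macrophage markers moved with the members. All 13 of 13 listed markers were higher in FAN under ad libitum and 11 of 13 under time-restricted feeding, against 32.1% and 24.5% of all genes. In FAN mice 9 markers were lower under time-restricted feeding, against 13.9% of all genes, and in vehicle mice 0 passed. Their summed level was 1746 to 2757 CPM in FAN-AL, 897 to 1673 CPM in FAN-TR, 128 to 218 CPM in vehicle-AL and 112 to 157 CPM in vehicle-TR libraries, with none of the 13 at 0 throughout a group. The summed C1q chains ran from 707 to 871 CPM, 311 to 694 CPM, 47.0 to 112 CPM and 45.9 to 71.2 CPM in the same groups. Both sums were therefore lowest in vehicle, highest in FAN-AL, and between them in FAN-TR libraries.

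The ratio of each quantity to the macrophage sum was compared by 28 exact two-sided permutation tests over the 70 assignments of 4 against 4 libraries, whose smallest possible p is 0.0286. None passed after adjustment, and the lowest adjusted p was 0.114, in exact tests with n = 4 a group. In the FAN comparisons C3, Cfb, C3ar1 and Serping1 under ad libitum feeding reached the smallest possible p. So did C4b, C3ar1 and Serping1 under time-restricted feeding. Adjustment over 28 tests lets a ratio at that p pass only if most others also reach it. The lack of passing ratios therefore allows no conclusion. The log2 ratio of C1q to the markers differed by −0.42 between FAN and vehicle under ad libitum and by −0.21 under time-restricted feeding, and by 0.00 between regimens in FAN mice. That of Cfb differed by −2.80 and −2.28 in the FAN comparisons, the largest differences of all. That of C3 differed by 1.66 and 1.13 in the FAN comparisons of the ad libitum and time-restricted regimens, that of C3ar1 by 0.72 and 0.86, that of Cfi by 0.62 and 0.59, that of C4b by −0.58 and −1.09, and that of Serping1 by −1.63 and −1.66. C3, C3ar1 and Cfi thus had larger, and C1q, C4b, Serping1 and Cfb smaller, mean changes than the marker sum in these libraries. That sum leans on Lyz2, at a mean of 1101 of 2254 CPM in FAN-AL and 28.2 of 168 CPM in vehicle-AL libraries. Lyz2 ran from 639 to 1543 CPM within FAN-AL. Its log2 changes between FAN and vehicle, 5.29 and 4.52, were the largest of the markers.

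The sign of such ratios depends on the markers chosen. With the 3 markers Adgre1, Csf1r and Fcgr1 alone, the C1q ratio rose by 1.96 under ad libitum and 2.33 under time-restricted feeding. In that trio Csf1r was at 82.8 to 149 CPM in FAN-AL, 44.7 to 64.7 CPM in FAN-TR, 65.3 to 95.7 CPM in vehicle-AL and 47.1 to 70.8 CPM in vehicle-TR libraries, with log2 differences between FAN and vehicle of 0.58 and −0.10. Adgre1 changed by 4.58 and 4.08 in the same comparisons. The part of macrophage number in the members' changes was not tested.

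**Figure D4:**
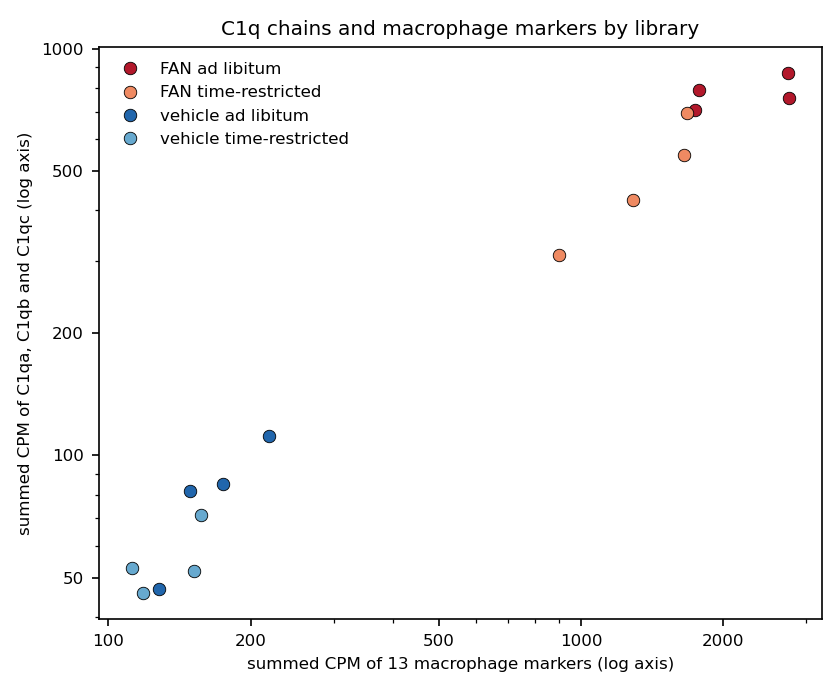
Summed CPM of C1qa, C1qb and C1qc against the summed CPM of 13 macrophage markers in each of the 16 libraries, both on log axes, coloured by group. Vehicle libraries lie at 112 to 218 CPM of markers and 45.9 to 112 CPM of C1q, and FAN libraries at 897 to 2757 CPM of markers and 311 to 871 CPM of C1q.

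Other cell type markers moved as well. Markers of fibroblasts, which are known to make C1r, C1s and C3, summed to 1037 to 2016 CPM in FAN-AL, 570 to 1156 CPM in FAN-TR and 96.6 to 204 CPM in vehicle libraries. All 8 of 8 were higher in FAN under ad libitum and 7 of 8 under time-restricted feeding, against 32.1% and 24.5% of all genes. In FAN mice 5 of the 8 were lower under time-restricted feeding, against 13.9% of all genes. Neutrophil markers summed to 19.4 to 30.8 CPM in FAN-AL, 6.50 to 19.9 CPM in FAN-TR and 0.847 to 4.48 CPM in vehicle libraries. Of these 8 markers 6 were tested, and those 6 were higher in FAN under both regimens, against the same shares of all genes. In FAN mice 2 of them were lower under time-restricted feeding, against 13.9% of all genes. The sum of 6 genes listed as markers of hepatocytes, the main source of plasma complement, was lower in FAN. It went from 33.6 to 50.4 CPM in vehicle libraries to 23.6 to 31.8 CPM in FAN-TR and 4.53 to 8.75 CPM in FAN-AL libraries. Only 4 of the 6 were tested, and Ahsg had 0 counts in all vehicle-AL libraries. Of those tested, 4 were lower in FAN under ad libitum and 3 under time-restricted feeding, against 28.6% and 19.0% of all genes. The sum does not show that hepatocytes were present in these kidneys. T cell markers summed to 20.4 to 35.5 CPM in FAN-AL, 20.8 to 34.4 CPM in FAN-TR, 2.64 to 8.87 CPM in vehicle-AL and 4.36 to 5.17 CPM in vehicle-TR libraries. Of these 6 markers 5 were higher in FAN under ad libitum and 6 under time-restricted feeding, against the same 32.1% and 24.5% of all genes. Between regimens in FAN mice 0 passed, where 17.9% of all genes were higher and 13.9% lower. B cell markers summed to 4.75 to 11.8 CPM in FAN-AL, 17.5 to 25.2 CPM in FAN-TR, 5.18 to 7.19 CPM in vehicle-AL and 4.48 to 18.1 CPM in vehicle-TR libraries. None of the 5 passed between FAN and vehicle. In FAN mice 1 was higher under time-restricted feeding, against 17.9% of all genes. The tubule injury markers Havcr1 and Lcn2 summed to 582 to 919 CPM in FAN-AL, 251 to 520 CPM in FAN-TR and 7.28 to 32.9 CPM in vehicle libraries. The part of these cell types in the members' changes was not tested.

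The genes most like each member over the 16 libraries, among 11252 genes with a mean of at least 5 CPM, were taken by Pearson r of log2 CPM. For C1qa these were Ctss, Nckap1l and H2-Eb1, for C1qb Fcgr1, Nckap1l and Tifab, and for C1qc Nckap1l, Cmtm3 and Bin2. C3 was nearest to Cd14 (0.993), Sorbs2 and Aoc1, C4b to Adcy7 (0.99), Efhd2 and Unc93b1, and C3ar1 to Arhgap30 (0.993), Naaa and Cmtm3. Cfi was nearest to Tlr13 (0.99), Pros1 and Ncf1, and Serping1 to Sting1 (0.989), Litaf and Serpine2. The gene nearest to Cfb was Rhoa (0.9), followed by Adap2 and Pdpk1. These values follow the difference between FAN and vehicle libraries and are descriptions.

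The rest of the complement system was read from 50 further genes, of which 37 were tested. Of these 22 were higher and 8 lower in FAN under ad libitum feeding, where 32.1% of all genes were higher and 28.6% lower. Under time-restricted feeding 22 were higher and 5 lower, against 24.5% and 19.0% of all genes. The lower counts were thus below the share of all genes in both regimens. In FAN mice 4 were higher and 11 lower under time-restricted than ad libitum feeding, against 17.9% and 13.9% of all genes, and in vehicle mice 0 passed. The counts by role that follow rest on 12 genes or fewer each. Most of their lower counts between FAN and vehicle are near or below these shares. Their median log2 change was 0.85 and 0.97 in the FAN comparisons. The genes not tested for low counts were C1rb, Mbl2, Fcna, Fcnb, Colec10, C8b, Vsig4, Cfhr3, Cfhr4, Cd55b, Cpn2, Csmd2 and Csmd3.

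Among the initiation genes, 5 of 10 tested were higher and 3 lower in FAN under ad libitum feeding, against 32.1% and 28.6% of all genes. The C1q-associated proteases rose beside the chains: C1s1 went from 11.1 ± 2.01 to 71.7 ± 6.16 CPM (log2 2.69) and C1ra from means of 9.86 to 45.0 CPM (log2 2.18), with SD and n = 4 where given. Colec12, a scavenger receptor with a collectin domain, went from 13.5 ± 4.52 to 117 ± 11.5 CPM (log2 3.11). All 3 were lower under time-restricted feeding in FAN mice, with log2 changes of −0.53 for C1s1, −0.45 for C1ra and −0.75 for Colec12. The C1ra call was lost without FAN-AL 6, 7 or 12 or FAN-TR 6, 10 or 12, with an adjusted p of up to 0.142. C2, the partner of C4 in the classical convertase and named after its values were seen, was higher by 0.58 and 0.94 with overlapping groups, and 42.8% of its exon bases also lie in Gm20547.

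Properdin (Cfp), which stabilises the alternative convertase, rose by 2.01 on the log2 scale and by 1.95 under time-restricted feeding, from 7.65 ± 0.408 to 30.8 ± 10.9 CPM under ad libitum feeding. Factor D (Cfd), an adipocyte product known as adipsin, did not pass, and ran from 0 to 187.5 CPM across libraries. Its highest library, vehicle-TR 2, also had the highest adipocyte marker sum (127.6 CPM). That library had the highest C3 of all vehicle libraries too, at 34.8 CPM. It also had their highest sums of tubule injury markers (32.9 CPM) and of B cell markers (18.1 CPM). Whether these values are linked was not tested.

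Of the 6 terminal pathway genes tested, 3 were higher and 2 lower in FAN under both regimens. Of all genes, 32.1% were higher and 28.6% lower under ad libitum, and 24.5% and 19.0% under time-restricted feeding. C6, a subunit of the membrane attack complex, went from 0.265 ± 0.0542 to 5.52 ± 2.22 CPM (log2 4.33). The C8 chains went down: C8a fell by 3.28 and C8g by 2.16 on the log2 scale under ad libitum, and by 1.79 and 0.96 under time-restricted feeding. C8a was at 79.5 ± 17.0 CPM in vehicle-AL, 79.6 ± 17.8 CPM in vehicle-TR, 23.1 ± 7.75 CPM in FAN-TR and 8.18 ± 1.99 CPM in FAN-AL libraries. C8a and C8g thus followed the order of the proximal tubule and hepatocyte markers, against that of the members.

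Of the 7 receptors tested, 6 were higher and 1 lower in FAN under ad libitum feeding, against 32.1% and 28.6% of all genes. In FAN mice 5 of the 7 were lower under time-restricted feeding, against 13.9% of all genes. Itgam and Itgb2, the chains of the complement receptor Mac-1 on myeloid cells, rose by 4.91 and 3.18 under ad libitum and 5.21 and 3.03 under time-restricted feeding. The C5a receptor C5ar1 rose by 4.09 and 2.78, from 0.784 ± 0.438 to 13.8 ± 3.72 CPM under ad libitum feeding. In FAN mice C5ar1 was lower by 1.44 on the log2 scale under time-restricted feeding, Itgb2 by 0.89 and Itgam by 0.64. The Itgam call was lost without any 1 of the FAN-AL libraries and without FAN-TR 6 or 12, with an adjusted p of up to 0.141. Itgam shares 68.7% of its exon bases with Gm49368, which had 9 counts in all libraries together.

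Of the 12 regulators tested, 7 were higher and 2 lower in FAN under ad libitum feeding, against 32.1% and 28.6% of all genes. The membrane inhibitor Cd55 was lower, from 29.7 ± 7.96 to 9.32 ± 0.932 CPM (log2 −1.67) under ad libitum and from 38.3 ± 6.77 to 25.6 ± 5.17 CPM (log2 −0.58) under time-restricted feeding. The latter call was lost with the S number run as a covariate (adjusted p = 0.265), within the earliest S numbers (adjusted p = 0.366) and without vehicle-TR 4 (adjusted p = 0.0626). Clusterin (Clu), a fluid-phase inhibitor of the terminal complex, rose by 2.28 and 0.97.

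**Figure D5:**
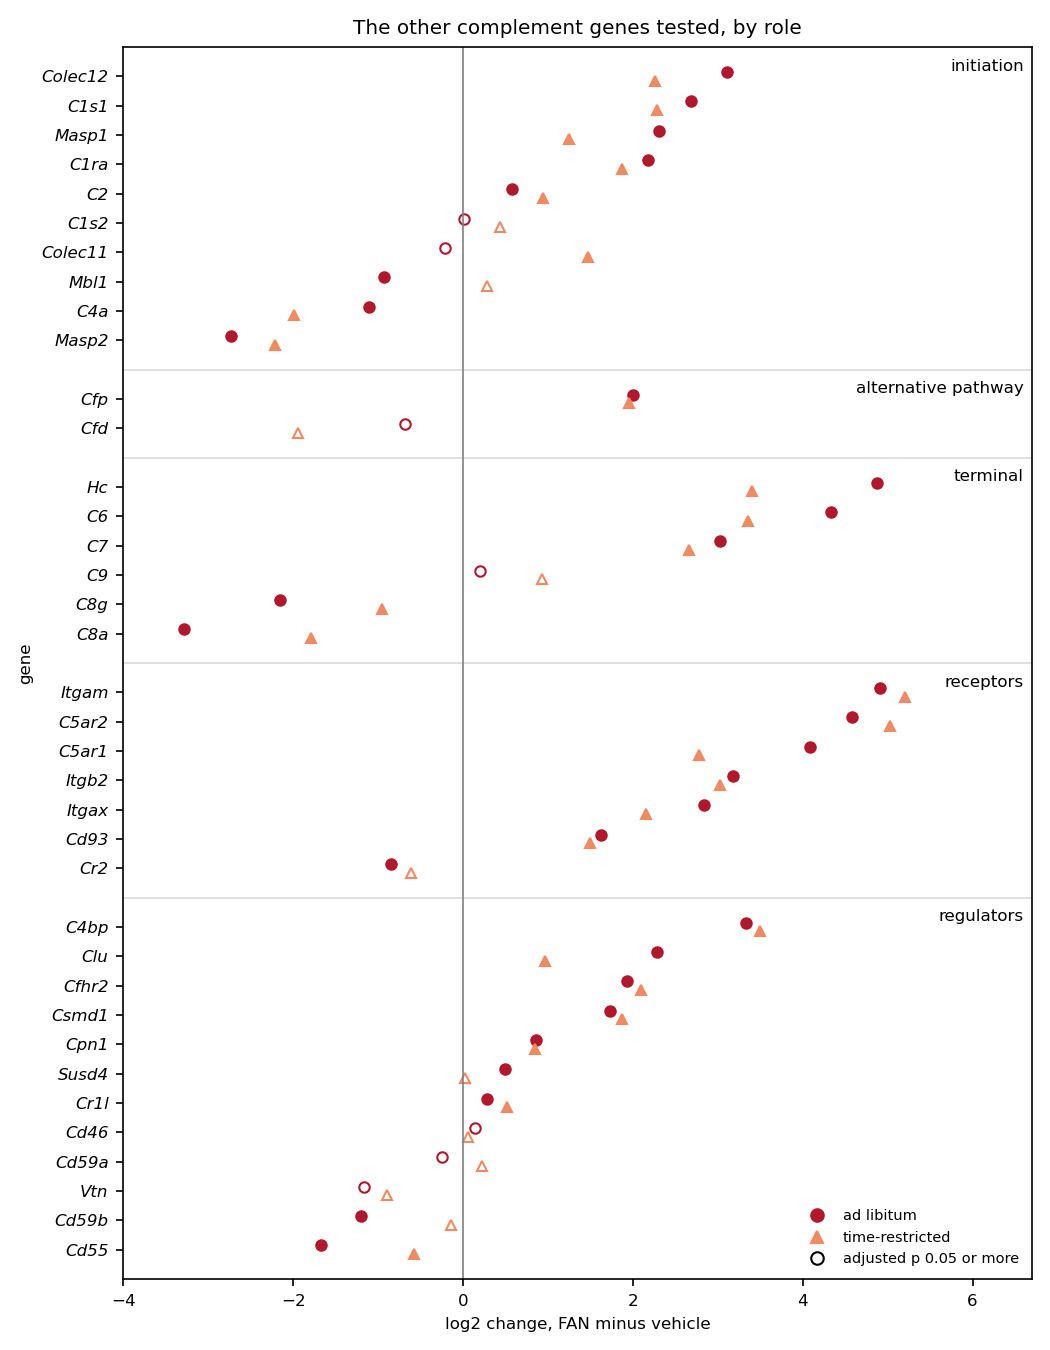
Log2 change between FAN and vehicle kidneys of the 37 other complement genes tested, ordered by role, with circles for ad libitum and triangles for time-restricted feeding and open markers where the adjusted p is not under 0.05. Most receptors lie to the right of 0, C8a and C8g lie to the left, and 22 genes are higher in each regimen.

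The FAN effect differed between regimens for 6 of the 37 other genes by the interaction in edgeR's quasi-likelihood test, 5 with a higher value and 1 lower. Of all genes tested 9.16% passed, 7.76% with a higher and 1.40% with a lower value. C8g (1.20, adjusted p = 0.000224), C8a (1.49, adjusted p = 0.0134) and Cd55 (1.09, adjusted p = 0.0134) fell less under time-restricted feeding. Mbl1, a mannose-binding lectin, had log2 differences between FAN and vehicle of −0.93 under ad libitum and 0.29 under time-restricted feeding (interaction 1.22, adjusted p = 0.0185). Colec11, a collectin of the lectin pathway, had −0.21 and 1.47 (interaction 1.68, adjusted p = 0.0441) at levels of 0.513 to 1.45 CPM as group means. Clu rose less under time-restricted feeding (−1.31, adjusted p = 0.0487), and its libraries ran from 688 to 1801 CPM in FAN-AL and from 293 to 495 CPM in FAN-TR mice. The Clu call was lost in 12 of the fits that left out 1 library, with an adjusted p of 0.0540 to 0.108, and the Colec11 call in 13 of them, with an adjusted p of 0.0568 to 0.0964. Scaling by total counts ended those of C8a (adjusted p = 0.0565), Cd55 (0.49, adjusted p = 0.144), Mbl1 (0.62, adjusted p = 0.133) and Colec11 (1.12, adjusted p = 0.0887). The Clu and Colec11 calls were also lost with the S number run as a covariate (adjusted p = 0.108 and 0.0524) and with no filter on low counts (adjusted p = 0.160 and 0.0817). Those of C8a and Colec11 were lost within the earliest S numbers (adjusted p = 0.0646 and 0.0961).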

How the data were processed

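RNA of 16 kidney libraries was sequenced with a stranded poly(A) kit after TRIzol extraction, per the labels' protocols. The values used are the raw read counts per gene deposited by the authors. The build mm10 and the tools STAR 2.5.3a, FastQC 0.11.5 and edgeR 3.26.7 were named, per the submitters' processing notes. The counting tool and strand setting are not given in the sources used here, so genes that overlap, on either strand, may have exchanged reads. Vehicle columns matched sample titles. FAN columns could be tied to a group but not to a title, and carry the column's number. Groups are shortened to AL (ad libitum) and TR (time-restricted).

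The counts were analysed with edgeR 4.0.16 in R 4.3.3. Genes were kept by filterByExpr with a minimum count of 10 and scaled by TMM. The 16 libraries entered 1 quasi-likelihood model of the 4 groups with robust dispersion, and Benjamini-Hochberg adjustment ran over 17731 genes with a threshold of 0.05. Standard errors are those of the model. Log2 CPM used a prior count of 2. Alternatives were DESeq2 1.42.0, limma 3.58.1 voom with sample weights, scaling by library size, no filter, the S number run as a covariate or by itself, a replicate block, and each library left out. Figures and sequences were made with Python 3.11.15, Biopython 1.88, numpy 2.4.6 and matplotlib 3.10.9. Of the table's identifiers 52029 were found in GENCODE M21, and 71 genes had no symbol.

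The members, gene lists and naming rule were chosen with earlier results of these data known. All 9 members were named. Of the other complement genes, the 3 with the smallest p per role under ad libitum feeding and those that passed in the interaction were named, apart from 1 regulator that is not reported here. Any 2 libraries of a group differed by more than counting noise, with a lowest chi-square per gene of 18.4. It was 20.7 for FAN-AL 6 and 7 and 26.7 for FAN-AL 10 and 12, but 146.4 to 154.7 between these pairs. The pairs differ in S number run. FAN-TR 6 gave 21.5 to 62.6 against FAN-TR 10, 11 and 12, which are of another run. Vehicle-AL 1 and 2, of the same run, gave 86.0. The part of the run in the feeding comparison was not tested apart from the fits by run.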

Additional observations from a re-analysis of the deposited data

Results flagged for a closer look

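Of 104 groups of 4 libraries checked for a library far from the other 3, 12 were flagged, and chance flags about 1 in 20. Among the members, C3 in vehicle-TR 2 was 34.8 CPM, against 10.8 to 13.8 CPM in the other 3. C4b in vehicle-AL 2 was 6.52 CPM, against 4.86 to 5.08 CPM. Cfb in FAN-TR 12 was 5.20 CPM, against 2.08 to 2.61 CPM, while the other members were lowest in that library.

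Among the other complement genes, C8a in vehicle-AL 1 was 54.2 CPM against 84.9 to 90.8 CPM, and Itgb2 in vehicle-TR 1 was 1.86 CPM against 2.53 to 2.56 CPM. Itgam in FAN-AL 12 was 26.6 CPM against 19.2 to 19.4 CPM, and C5ar1 in vehicle-AL 2 was 1.44 CPM against 0.505 to 0.623 CPM. In FAN-TR mice Clu was 293 CPM in library 12 against 471 to 495 CPM, and Colec11 was 1.89 CPM in library 11 against 1.27 to 1.36 CPM. C4a was 0.907 CPM in FAN-AL 10 against 1.95 to 2.01 CPM, and 5.27 CPM in vehicle-AL 3 against 3.09 to 3.40 CPM. Cfd in vehicle-TR 2 was 187.5 CPM, against 2.12 to 20.7 CPM, in the library with the highest adipocyte marker sum.

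These 6 genes were named because they passed the interaction, as 9.16% of all genes did. Their log2 differences between regimens in the FAN effect were 1.20 for C8g, 1.49 for C8a, 1.09 for Cd55, 1.22 for Mbl1, 1.68 for Colec11 and −1.31 for Clu.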

How the results depend on the processing

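The 8 rises under ad libitum feeding passed in every alternative, as did those under time-restricted feeding except Serping1 within the earliest S numbers. Of 153 values of the members for feeding in FAN mice, 37 lost the threshold and 10 gained it, and depth limits Cfb, C4a and the vehicle levels of C3ar1 and Cfi. The S numbers follow FAN and vehicle in part, so the runs and the treatment cannot be fully told apart. Where a fit left an arm with 1 library, that library was assumed to vary like the others.

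The count of genes called for FAN under time-restricted feeding was 4974 with the S number run as a covariate. For feeding in FAN mice it was 2129 within the last S numbers, 11502 with library size scaling and 9304 with limma voom. For feeding in vehicle mice it was 58 with DESeq2, 35 with voom, 9 within the middle S numbers, 6 with no filter, 1 with the covariate, 1 with vehicle libraries only and 0 to 2 with 1 library left out. For the interaction it was 6631 with library size scaling and 5264 with voom. The cause was not tested.

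Some values that changed sign were near 0 and others were not. The C1qa interaction was −0.02 with DESeq2, −0.051 with the covariate, −0.56 with library size scaling, −0.0912 with voom and −0.0004 with no filter. The Cfb interaction was −0.026 with DESeq2, −0.58 with library size scaling, −0.55 with voom and −0.0034 with no filter. Within the middle S numbers the vehicle feeding difference was −0.38 for C3, −0.19 for C4b, 0.56 for Cfb and 0.015 for Cfi, and with library size scaling it was −0.015 for C4b. The FAN feeding difference was 0.46 for Cfb and 0.0654 for C6 within the last S numbers, −0.0431 for C2 and 0.56 for Cfd within the earliest, −0.37 for C2 with library size scaling, and 0.0746 for Cfp and 0.88 for Cfd with voom. Under ad libitum feeding the FAN difference was 1.64 for Cfd within the earliest S numbers and 0.0049 with library size scaling, and 0.47 for Colec11 with that scaling.

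Over the 3 markers Adgre1, Csf1r and Fcgr1 in place of 13, the log2 ratio changed by 1.96 for C1q, 1.79 for C4b and 0.74 for Serping1 in the ad libitum FAN comparison, and by 2.33, 1.45, 0.89 and, for Cfb, 0.27 in the time-restricted one. For feeding in FAN mice it was 0.12 for C3, 0.0185 for C4b, 0.0863 for C3ar1 and 0.16 for Cfi, and in vehicle mice 0.0722 for Cfb and 0.0336 for Cfi.

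With 1 library left out, the interaction ran from −0.17 to 0.22 for C1qa, −0.39 to 0.0315 for C1qb and −0.33 to 0.37 for Cfb. The vehicle feeding difference ran from −0.27 to 0.45 for C3, −0.15 to 0.18 for C4b, −0.53 to 0.0257 for Cfb and −0.36 to 0.0304 for Serping1. The FAN feeding difference ran from −0.65 to 0.0471 for Cfb and −1.37 to 0.0179 for Cfd, and the FAN difference of Cfd from −1.27 to 0.82 under ad libitum and −2.74 to 0.52 under time-restricted feeding. The ratio to the 13 markers for feeding in FAN mice ran from −0.12 to 0.11 for C1q, −0.34 to 0.0837 for C3, −0.45 to 0.0224 for C4b, −0.31 to 0.0592 for Cfi and −0.0618 to 0.26 for Serping1, and in vehicle mice from −0.33 to 0.51 for Cfb and −0.26 to 0.18 for Cfi.

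The vehicle samples share numbers between regimens, but these did not pair them: the correlations of same-numbered deviations were 0.179, 0.119, −0.146 and −0.0134. With the replicate block over vehicle libraries only, 0 genes were called. The FAN columns share the numbers 6, 10 and 12, whose correlations were −0.131, −0.171 and −0.168, below those of all differently numbered pairs. With the replicate block over those libraries, chosen after seeing the data, 2325 genes and 5 members were called for feeding in FAN mice, and 3035 genes and 7 members without the block. C1qa was lost under the block (adjusted p = 0.0612 by edgeR). With and without it C2 was −0.0566 and −0.047, and Cfd 1.74 and 0.44. No paired analysis was possible between FAN and vehicle because their columns share no number.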
